A study of Homo sapiens with 4 samples.

Results

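The telomerase and shelterin genes were followed through 4 RNA sequencing libraries of A549 tumors. The set holds 10 genes of the 38137 in the deposited files. The 4 telomerase genes are TERT, TERC, DKC1 and NHP2, and the 6 shelterin genes are TERF1, TERF2, TERF2IP, POT1, TINF2 and ACD. The genes were taken by symbol and selected on the TERT read counts of the combination and control libraries. Every TERT comparison that uses either of these libraries is therefore a description and supports nothing. A549 is a human non-small cell lung cancer (NSCLC) line, grown here as xenografts in the flank of male BALB/c athymic nude mice, which lack mature T cells and were 6 weeks old. The groups were untreated control mice, mice given aerobic exercise, mice given radiation, and the combination group given both. Treadmill exercise lasted 30 min per session and radiation was 2 Gy per session, with 3 sessions per week for 2 weeks. In the combination group the exercise came before the irradiation on the same day. Each group is represented by 1 library. Whether a library holds 1 tumor or several is not given in the sources used here, and the cell line stands for 1 tumor genotype.

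Telomerase adds telomeric repeats to chromosome ends. TERT is its reverse transcriptase, TERC is the RNA that carries the template, and dyskerin (DKC1) and NHP2 belong to the protein clamp that binds and stabilises TERC. Most adult tissues silence TERT, and most carcinomas keep it on at a low mRNA level. Shelterin coats the repeats. TERF1 and TERF2 bind duplex repeats, TERF2IP (RAP1) binds TERF2, POT1 binds the single-stranded overhang, TINF2 (TIN2) bridges the parts, and ACD (TPP1) pairs with POT1 and recruits telomerase.

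The sequences shown belong to the telomerase genes whose levels were lowest. The first is the TERT promoter window, chr5:1295019-1295318 on the minus strand of GRCh38.p14, from RefSeq. It runs across the annotated start, and capitals mark the E-box letters CACGTG, which MYC and MAX are known to bind, and the GC box letters GGGCGG or their reverse complement, which SP1 is known to bind. The second is the first 100 bases of TERC, at chr3:169764961-169765060 on the minus strand of GRCh38 in the GENCODE 29 transcripts. Its capitals mark the 11 template bases, positions 46 to 56 of the RNA, which are complementary to the telomeric repeat.
TERT promoter: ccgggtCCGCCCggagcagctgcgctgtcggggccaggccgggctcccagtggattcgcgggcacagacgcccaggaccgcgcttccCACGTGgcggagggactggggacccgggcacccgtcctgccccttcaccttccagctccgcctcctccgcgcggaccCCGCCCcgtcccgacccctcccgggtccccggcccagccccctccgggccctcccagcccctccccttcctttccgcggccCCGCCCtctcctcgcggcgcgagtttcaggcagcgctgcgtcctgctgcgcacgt
TERC start: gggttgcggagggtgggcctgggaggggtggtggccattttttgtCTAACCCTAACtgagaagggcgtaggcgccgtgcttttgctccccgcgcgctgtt

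The TERT window held 1 E-box and 3 GC boxes, searched on both strands, and these motifs share no bases. The window ends in the letters cacgt, and an E-box that runs past its edge would not be counted. An E-box occurred in 7.26% of 35116 RefSeq promoter windows of the same length, and a GC box in 45.0%. Windows were found for 7 of the 10 genes, 8 windows in all, and the TERT window was the one among them with an E-box. A letter match describes the sequence and does not show that a factor binds it.

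Total reads assigned to genes ranged from 33432637 in the combination to 35408705 with radiation alone. Counts were scaled with TMM, a factor that corrects library size for composition, and are given as CPM, counts scaled to a common library total. The file labels call the tissue lung cancer. The A549 deletion of CDKN2A and CDKN2B was visible as 1 read of CDKN2A in control and 0 reads in the other libraries, and 0 reads of CDKN2B in all 4. Epithelial keratins were abundant, with 110279 to 125804 reads of KRT8. Lung lineage markers were uneven. The regulator NKX2-1 had 0 to 4 reads and the surfactant gene SFTPC 0 to 3, while the alveolar protease NAPSA had 166 to 199, SFTPD 112 to 184 and AGER 115 to 157. The summed level of 12 skeletal muscle markers was 13.9 CPM in control, 15.5 with exercise, 50.3 with radiation and 60.5 with both, with 8, 10, 12 and 12 of the markers detected. The summed level of 9 fibroblast markers was 329, 336, 216 and 186 CPM in the same order. The part of these cells in any member's level was not tested.

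TERT was nearly lost from both irradiated libraries and present at a low level in both others. The control library held 34 TERT reads and the exercise library 49. The radiation library held 4 and the combination library 2. In that order these counts are 0.952, 1.42, 0.115 and 0.0611 CPM. The lowest unirradiated library had 8.28 times the TERT level of the highest irradiated one, so the pairs of libraries did not overlap. In bulk tumor RNA, fewer TERT-expressing cells and less TERT RNA per cell cannot be told apart. The 2 reads in the combination lie below the 3 reads (0.0916 CPM) that a count of 0 allows in that library.

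With radiation alone, the TERT level was 0.121 times that of control (95% interval 0.0311 to 0.339). Against exercise alone it was 0.0811 times (0.0213 to 0.221). The combination stood at 0.0641 times control (0.00747 to 0.250) and 0.0431 times exercise alone (0.00507 to 0.164). These 4 intervals lie below the 2-fold line. All but that of radiation against exercise use a count on which the genes were selected. The intervals make no allowance for that selection, so their position supports nothing. The intervals are exact (Clopper-Pearson) and cover counting error alone, because no group has a second library. No p-value was computed: even with the libraries joined as 2 irradiated against 2 unirradiated, an exact two-sided permutation test could not go below 0.333. All comparisons against control share the control library, and all against exercise share the exercise library.

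Exercise did not separate the TERT levels beyond counting error. Exercise alone stood at 1.49 times control (95% interval 0.942 to 2.38). The combination stood at 0.531 times radiation alone (0.0480 to 3.70), a comparison of 2 reads with 4, whose interval allows a fall as well as a rise. The ratio of these ratios was 0.361, with an interval of 0.0310 to 2.68. A difference between the combination and radiation alone was therefore not detectable at this depth.

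**Figure D1:**
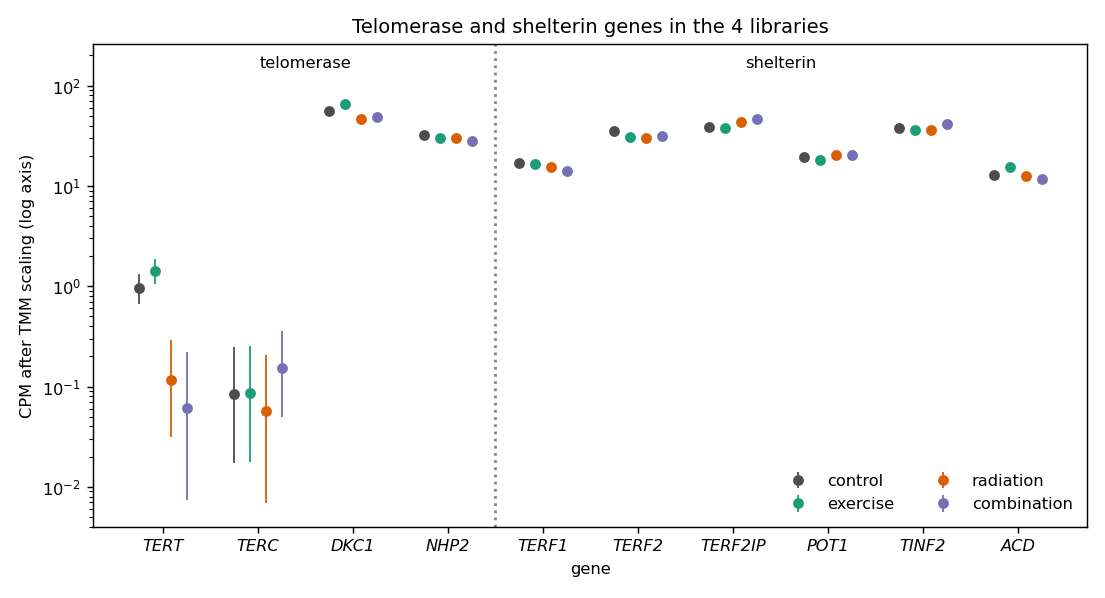
CPM after TMM scaling (log axis) of the 10 genes in the 4 libraries, 1 point per library, with exact 95% Poisson intervals of the counts, which are narrower than the points for most genes. TERT sits near 1 CPM in control and exercise and at 0.115 and 0.0611 CPM in the irradiated libraries, while the 6 shelterin genes stay between 11.6 and 46.4 CPM.

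The TERT ratios were then set among those of all genes. Log2 ratios were formed after adding 0.5 counts to each gene, for the 19393 genes whose count averaged 20 or more across the libraries. TERT passed this minimum, with a mean of 22.25 reads, through its reads in control and exercise, so among low genes it had to be one that differed. Its combination and control reads were also those used for selection. The places below are therefore a description and support nothing. Radiation against exercise uses neither selected count but shares the limit of the minimum. The TERT log2 ratio was -3.68 for combination against control, the lowest of all genes compared, and -4.24 for combination against exercise, again the lowest. It was -2.90 for radiation against control, place 4 from the lowest, and -3.47 for radiation against exercise, place 2. For exercise against control it was 0.57, and for combination against radiation -0.78, place 389. Without a minimum count, over 38137 genes, TERT was at place 40 for combination against control, 8 for combination against exercise, 161 for radiation against control and 33 for radiation against exercise. Low counts scatter widely: of the 2399 genes that averaged 20 to 50 reads, 7.46% were at least 2-fold lower in combination against control and 5.50% in radiation against exercise.

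**Figure D2:**
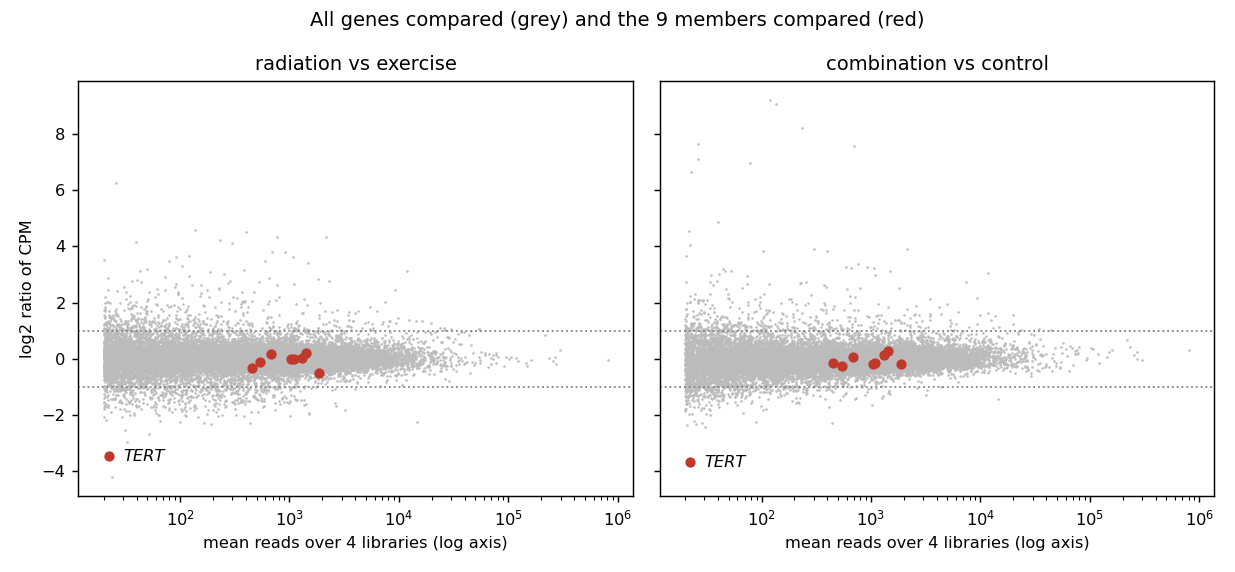
Log2 ratio of CPM (0.5 counts added) against the mean reads of each gene over 4 libraries (log axis), for radiation against exercise and combination against control. Grey points are the 19393 genes compared, red points the 9 members compared, and dotted lines mark 2-fold; TERT lies at -3.47 and -3.68, below nearly all genes of similar count, and the other 8 lie within the lines.

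TERC was barely detected. The control and exercise libraries held 3 reads each, the radiation library 2 and the combination library 5. No ordering of the groups can be read from these counts. The combination stood at 1.82 times control (95% interval 0.354 to 11.7) and 2.65 times radiation alone (0.435 to 27.9). TERC averaged 3.25 reads and was left out of the comparisons across genes. The mature RNA has no poly(A) tail, and the libraries were selected for poly(A). Other untailed RNAs ranged widely. RN7SL1 had 2612, 733, 1422 and 1086 reads and RN7SL2 2325, 652, 1237 and 815 in control, exercise, radiation and combination, while RN7SK had 123, 40, 132 and 78 and RMRP 43, 20, 46 and 21. Against control, all 5 untailed RNAs compared were 2-fold lower or more in the exercise library, beside 0.701% of all genes. The number was 0 of 5 in the radiation library, beside 0.897%, and 3 of 5 in the combination library, beside 1.77%.

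DKC1, the pseudouridine synthase of the clamp, was the most variable of the well-measured members. Its reads numbered 1972 in control and 2271 with exercise, against 1615 with radiation and 1596 with both treatments, or 55.2, 65.7, 46.4 and 48.7 CPM. The irradiated libraries were lower than both others without overlap. Exercise alone stood at 1.19 times control (95% interval 1.12 to 1.26), radiation alone at 0.841 times control (0.787 to 0.899), and radiation alone at 0.707 times exercise alone (0.662 to 0.753). The small RNA genes inside DKC1 were low by comparison, SNORA56 having 21 to 24 reads.

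NHP2, a small protein of the same clamp, had 1152, 1041, 1046 and 921 reads in control, exercise, radiation and combination. Its level was highest in control, at 32.3 CPM, equal in the single-treatment libraries, at 30.1 CPM each, and lowest in the combination, at 28.1 CPM. The combination stood at 0.872 times control (95% interval 0.798 to 0.951), and radiation and exercise differed by less than counting error (ratio 0.998, 0.915 to 1.09). NHP2 overlaps RMND5B by 1103 bases on the opposite strand, and the strand setting of the counting is not given in the sources used here. RMND5B had 1846, 1662, 1641 and 1499 reads, the same order of libraries as its neighbour except for the middle pair.

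NOP10 and GAR1, the other proteins of the clamp, and WRAP53 did not move as a unit. They were taken from a list of 20 genes of telomerase assembly and TERC maturation. NOP10 was at 63.6, 60.7, 70.1 and 74.3 CPM in control, exercise, radiation and combination, its combination level being 1.17 times control (95% interval 1.10 to 1.24). GAR1 had 437, 391, 340 and 328 reads, at 0.818 times control (0.707 to 0.947) in the combination. WRAP53 (TCAB1), which guides telomerase to Cajal bodies, had 607, 620, 424 and 409 reads and stood at 0.735 times control (0.646 to 0.834) in the combination.

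The duplex binding proteins of shelterin differed in pattern. TERF1 had 601, 576, 531 and 463 reads in control, exercise, radiation and combination, and the combination stood at 0.840 times control (95% interval 0.742 to 0.950). TERF1 was lower in both irradiated libraries, at 15.3 and 14.1 CPM against 16.8 and 16.7, although radiation alone differed from control by less than counting error (0.907, 0.806 to 1.02). TERF2 had 1255, 1056, 1053 and 1031 reads. Its control library was the highest, at 35.1 CPM, and the others lay between 30.3 and 31.5 CPM, so irradiated and unirradiated libraries overlapped. Exercise alone stood at 0.870 times control (0.800 to 0.945) and radiation alone at 0.862 times (0.793 to 0.936).

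TERF2IP was slightly higher after irradiation. Its unirradiated libraries held 1384 (control) and 1301 reads (exercise) and its irradiated ones 1498 (radiation) and 1520 (combination), and its levels of 43.1 and 46.4 CPM after irradiation did not overlap the 38.8 and 37.7 CPM of the other libraries. Its ratios were 1.11 for radiation against control (95% interval 1.03 to 1.20) and 1.20 for combination against control (1.11 to 1.29). TERF2IP overlaps KARS1 by 871 bases on the opposite strand. KARS1, a lysyl-tRNA synthetase, had 1712, 1976, 1644 and 1600 reads, with its highest count in the exercise library, where TERF2IP was lowest.

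POT1 and TINF2 varied little. POT1 had 697, 634, 713 and 671 reads in control, exercise, radiation and combination, or 19.5, 18.3, 20.5 and 20.5 CPM. The irradiated libraries were higher by TMM and by median-of-ratios scaling and overlapped the others by total counts. The combination stood at 1.05 times control (95% interval 0.943 to 1.17), within counting error. POT1-AS1, an RNA gene beside POT1 on the opposite strand, singled out after its values were seen, had 50, 46, 127 and 80 reads, at 2.61 times control (1.87 to 3.69) with radiation alone. TINF2 had 1360, 1240, 1262 and 1371 reads, and its highest level was in the combination, at 1.10 times control (1.02 to 1.19) and 1.15 times radiation alone (1.07 to 1.25).

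ACD resembled DKC1 in being highest with exercise. The exercise library held 539 ACD reads, against 456 in control, 434 with radiation and 379 with both treatments. The level of 15.6 CPM with exercise stood apart from 12.8, 12.5 and 11.6 CPM in control, radiation and combination, and exercise alone stood at 1.22 times control (95% interval 1.08 to 1.39). With exercise added to radiation the ratio was 0.927 (0.806 to 1.07), and this ratio divided by the one without radiation was 0.759 (0.628 to 0.918). The corresponding ratio of ratios was 0.882 for DKC1 (0.804 to 0.968), 1.20 for TERF2 (1.06 to 1.35) and 1.22 for TINF2 (1.10 to 1.37). These intervals exclude equality for counting error and say nothing of variation between tumors.

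**Figure D3:**
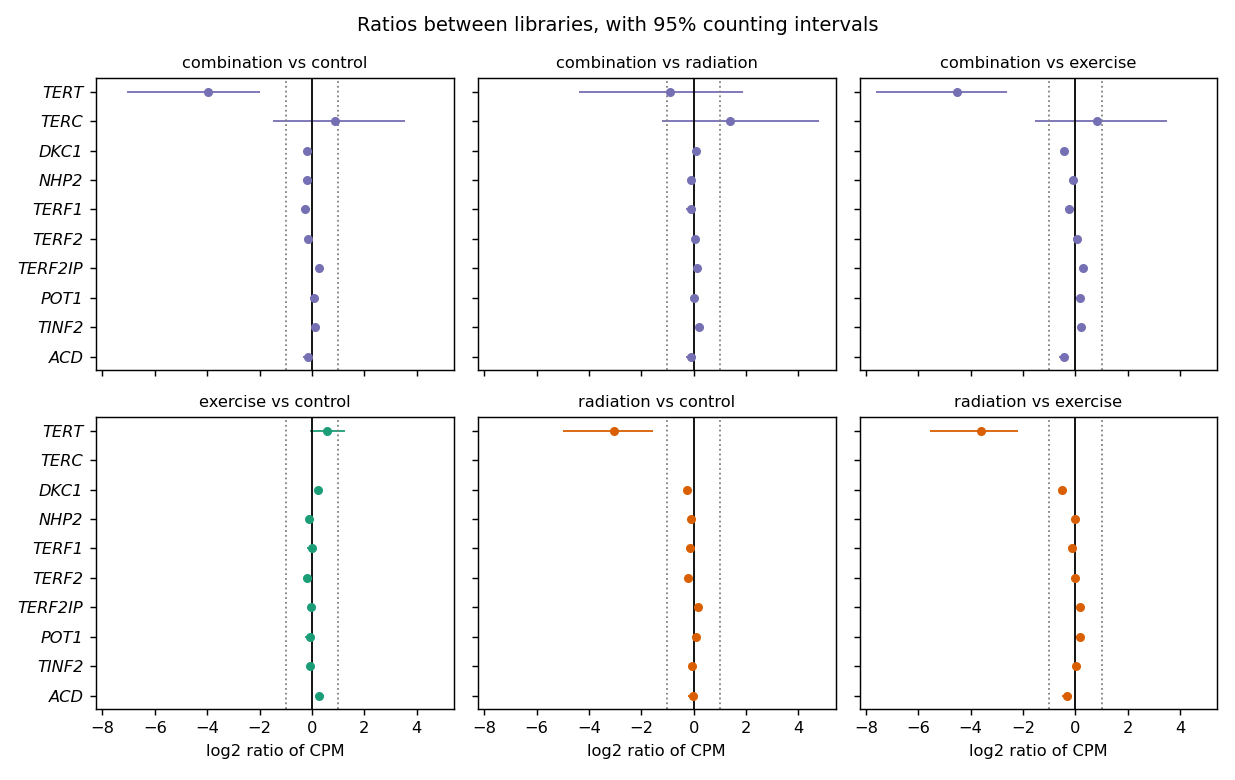
Log2 ratio of CPM, without added counts, for each gene in 6 comparisons of 2 libraries. Points are ratios, bars exact 95% counting intervals, and dotted lines 2-fold; TERT lies left of the line in the 4 comparisons of an irradiated with an unirradiated library, and TERC has no point where both libraries have 3 reads or fewer.

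Counted against the 2-fold threshold, TERT was the sole member past it, and none of the 8 others passed in any comparison. The genes were selected on the TERT reads of combination and control. TERT also passed the minimum count through its control and exercise reads. Its place in the counts that follow is therefore a description and supports nothing. TERT was 1 of 9 members compared that were lower in combination against control, where 1.77% of all genes were at least 2-fold lower and 2.27% higher. In combination against exercise the member count was again 1 lower and 0 higher, beside 3.06% and 2.92% of all genes. In radiation against control it was 1 lower and 0 higher, beside 0.897% and 1.89%. In radiation against exercise it was 1 lower and 0 higher, beside 2.51% and 2.77%. No member passed in combination against radiation (0.887% lower and 0.418% higher among all genes) or in exercise against control (0.701% lower and 0.830% higher). Without TERT, the 8 members ranged from 0.840 to 1.20 times control in the combination, with a median log2 ratio of -0.15 beside -0.02 for all genes. The median of the 6 shelterin genes was -0.04.

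Separation of the libraries by irradiation was common across the genome. Of the 9 members compared, 5 were lower in both irradiated libraries than in both others (TERT, DKC1, NHP2, TERF1 and ACD), and 27.6% of all genes did the same. Higher in both irradiated libraries were 2 members, TERF2IP and POT1, beside 26.2% of all genes. This order takes no account of counting error. For NHP2, radiation against exercise was at 0.998 (95% interval 0.915 to 1.09). Radiation against control was also within counting error for TERF1 (0.907, 0.806 to 1.02), ACD (0.977, 0.855 to 1.12) and POT1 (1.05, 0.945 to 1.17). By exercise, all 9 overlapped under TMM and median-of-ratios scaling, and all but POT1, lower in both exercised libraries, by total counts, beside 13.2% of all genes lower and 11.6% higher in both exercised libraries. For the 8 members other than TERT the difference between the pairs was small, from 0.787 times for DKC1 to 1.17 times for TERF2IP. For TERT it was 0.0743 times.

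Levels can be compared between genes per kilobase of annotated exon, as CPM per kilobase. NHP2 was the highest member in every library, at 18.6 to 21.4. TINF2 (13.2 to 15.4), DKC1 (11.0 to 15.6) and TERF2IP (11.1 to 13.7) overlapped in range over the libraries. TERF2 followed at 5.39 to 6.25, then ACD at 3.59 to 4.84, POT1 at 3.11 to 3.48 and TERF1 at 1.6 to 1.91. TERT, at 0.0133 to 0.308, and TERC, at 0.106 to 0.282, were the lowest and overlapped. The order depends on the length used. Per kilobase of whole gene span, TINF2 was the highest in every library (11.8 to 13.8, against 6.36 to 7.29 for NHP2), TERT (0.00146 to 0.0338) lay below TERC (0.128 to 0.339), and TERC overlapped POT1 (0.171 to 0.191). The reverse transcriptase was measured far below its protein partners even where it was highest, by either length. Reads may include introns, since the length implied by the deposited FPKM equals the whole gene span for TERT.

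Of 20 genes of telomerase assembly, 1 was at least 2-fold lower in combination against control and 0 were higher, beside 1.77% and 2.27% of all genes. With 20 genes, a count of 0 or 1 says little about the list. The median log2 ratio was -0.01, beside -0.02 for all genes. The same count held for radiation against control (median -0.12, beside 0.00), where 0.897% of all genes were lower and 1.89% higher. The gene past the line was PIF1, a helicase that removes telomerase from DNA ends and also takes part in replication. PIF1 reads were 241 in control and 374 with exercise, against 74 and 78 in the radiation and combination libraries. It stood at 0.353 times control in the combination (95% interval 0.270 to 0.457). The highest of the list were HSP90AA1, a chaperone of TERT assembly, at 1.22 times control (1.20 to 1.24), and RUVBL1, an ATPase of the same assembly, at 1.17 times (1.14 to 1.21).

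Of 7 genes of the CST complex and DNA polymerase alpha-primase, which fill in the complementary telomere strand, none reached 2-fold in any of the 6 comparisons. From 0.418% to 3.06% of all genes did so in a given direction and comparison. Of the 7, PRIM1 was the lowest, at 0.659 times control in the combination (95% interval 0.520 to 0.831), and STN1 the highest, at 1.11 times (1.04 to 1.20). Of 23 accessory genes of telomere replication and end protection, BLM was at least 2-fold lower in combination against control, beside 1.77% of all genes. This helicase had 398, 563, 214 and 181 reads in control, exercise, radiation and combination, and stood at 0.496 times control (0.414 to 0.593). The nuclease EXO1 had 247, 301, 163 and 121 reads. SAMHD1, a dNTP hydrolase, was the highest, at 1.22 times control (1.12 to 1.33). Of 12 chromatin genes tied to recombination-based telomere maintenance (ALT), none reached 2-fold against control. From 0.701% to 2.27% of all genes did so in a given direction and comparison. CBX5 (HP1 alpha) was at 0.680 times control (0.657 to 0.704) in the combination and ASF1B at 0.681 times (0.554 to 0.836), while PML was at 1.12 times (1.02 to 1.23). Against exercise, ASF1B was at 0.405 times with radiation (0.333 to 0.489) and at 0.433 times in the combination (0.357 to 0.523). It was the 1 gene of the 12 past 2-fold in each, where 2.51% and 3.06% of all genes were lower.

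Of 22 known regulators of TERT transcription, none was at least 2-fold different in combination against control or in radiation against control. In these comparisons 1.77% and 0.897% of all genes were lower, and 2.27% and 1.89% higher. The median log2 ratios of the regulators were -0.11 and -0.07, beside -0.02 and 0.00 for all genes. MYC, an activator known to bind E-boxes, had 3495, 3774, 2466 and 2592 reads in control, exercise, radiation and combination. Its level was 0.724 times control with radiation alone (95% interval 0.688 to 0.763) and 0.809 times (0.768 to 0.851) in the combination. MXD1, a MYC antagonist at E-boxes, had 559, 585, 862 and 796 reads, at 1.55 times control (1.39 to 1.73) in the combination. BHLHE40, a repressor that responds to hypoxia, had 9046, 12582, 9790 and 12645 reads and was high in both exercised libraries, at 1.52 times control (1.48 to 1.57) in the combination. ETS1 was at 0.717 times control (0.637 to 0.807). E2F1, a cell cycle activator with 306, 619, 235 and 241 reads, passed 2-fold upward with exercise alone. It was named because it was the 1 regulator that did. Against exercise, E2F1 was at 0.377 times with radiation (0.323 to 0.439) and at 0.411 times in the combination (0.352 to 0.477). It was the 1 regulator at least 2-fold lower in each of these comparisons, beside 2.51% and 3.06% of all genes. E2F1 also belongs to the list of 32 proliferation genes given below. The part of the regulators in the TERT level was not tested.

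The 5 compared neighbours of TERT on chromosome 5 stayed within 2-fold in all 6 comparisons. All 5 were above 0 on the log2 scale in exercise against control (median 0.32). Against exercise, 1 of 5 was above 0 with radiation (median -0.53) and 1 of 5 in the combination (median -0.48). SLC12A7 had 4513, 6418, 4272 and 3791 reads in control, exercise, radiation and combination. Its exercise level was 1.47 times control (95% interval 1.41 to 1.53), and its radiation level 0.661 times exercise (0.636 to 0.688). CLPTM1L had 2559, 2611, 2449 and 2404 reads in control, exercise, radiation and combination, at 1.02 times control (95% interval 0.968 to 1.08) in the combination. SLC6A18, next to TERT on the other side, had 0 reads in all 4 libraries. LPCAT1 was at 1.04 times control (0.999 to 1.07) and TRIP13 at 0.895 times (0.790 to 1.01). NKD2 was the lowest of them, at 0.779 times (0.646 to 0.939). Beside TERC on chromosome 3, ACTRT3 had 86, 83, 98 and 100 reads and MYNN 891, 855, 815 and 733. LRRC31, farther along, had 43, 41, 81 and 83 reads, at 2.10 times control (1.44 to 3.12) in the combination. SAMD7 was at 0.875 times control (0.621 to 1.23).

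Markers of proliferation and cell cycle arrest differed between the same libraries. All 32 proliferation genes were above 0 on the log2 scale with exercise alone (median 0.59), while their median in the radiation library was -0.72 and in the combination library -0.66. Of the 32, 7 were at least 2-fold lower in radiation against control, beside 0.897% of all genes, and 6 in combination against control, beside 1.77%. In radiation against exercise, a comparison added after seeing the data, the number was 24, beside 2.51%. MKI67, the gene of the Ki-67 antigen, had 3699 reads in control and 6007 with exercise, against 1704 and 1400 in the radiation and combination libraries. CDC20 had 132, 225, 55 and 45 reads, while PCNA was at 1.34 times control (95% interval 1.27 to 1.42) in the combination and TYMS at 1.30 times (1.22 to 1.39). CDKN1A, a cyclin-dependent kinase inhibitor, had 2164, 2752, 11361 and 13349 reads in control, exercise, radiation and combination, at 6.73 times control (6.43 to 7.04) in the combination. The part of these genes in the TERT level was not tested.

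**Figure D4:**
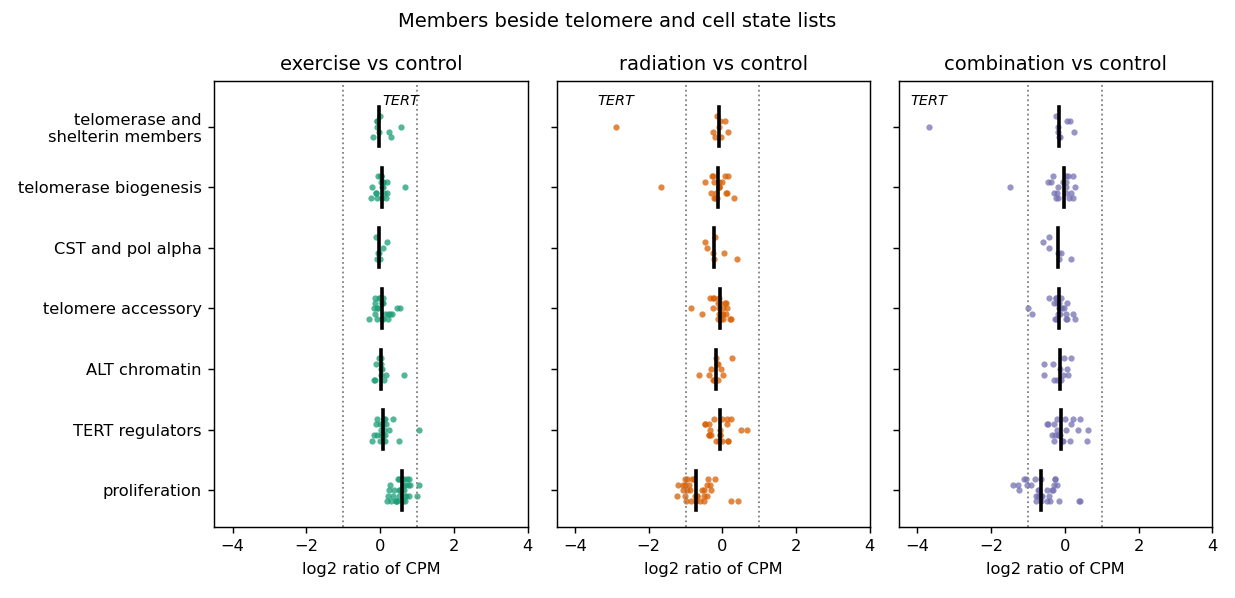
Log2 ratios of CPM against control for the 9 members compared and for 6 gene lists, 1 point per gene, in exercise, radiation and combination. Black bars are medians and dotted lines 2-fold; TERT is the left-most point of the radiation and combination panels, most telomere genes lie between the lines, and the proliferation genes have medians of -0.72 and -0.66 in radiation and combination.

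The genes nearest to TERT in pattern are given as a description. Likeness was the Euclidean distance between the 3 log2 ratios against control, over the 19393 genes. These include the combination ratio on which the genes were selected, and the TERT ratios rest on 2 and 4 reads, so the distances are uncertain and nothing is read from how many genes lie near. The nearest was TINAGL1, a secreted matrix-associated glycoprotein, at 1.80, with 614, 849, 174 and 116 reads in control, exercise, radiation and combination. Its irradiated libraries were also below both others. The next were LOC105378150 at 2.0 (61, 43, 7 and 14 reads), LOC728715 at 2.0 (133, 156, 45 and 25 reads), MAB21L4 at 2.3 (104, 84, 22 and 30 reads) and LOC112267936 at 2.40 (28, 36, 10 and 7 reads). The LOC genes are annotated as long noncoding RNAs. All points of this measure share the control library.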

How the data were processed

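RNA of 4 A549 xenograft groups was read as poly(A)-selected stranded libraries, 1 per group, and libraries were grouped by their labels. The authors trimmed reads with cutadapt, aligned them to GRCh38 with Bowtie2 2.3.4.1, which does not align across introns, and counted them with featureCounts 1.6.0. The authors deposited raw read counts per gene and FPKM values. The sources used here do not give the strand setting, the handling of mouse reads or any pooling of tumors. For 81.9% of 13026 genes the FPKM implied a length within 2% of the whole gene span.

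Counts were scaled with TMM (edgeR 4.0.16, R 4.3.3; factors 1.032 for control, 1.007 for exercise, 0.982 for radiation and 0.980 for both) and analysed with python 3.11.15, scipy 1.17.1, numpy 2.4.6, matplotlib 3.10.9 and pandas 2.3.3. Printed ratios are of CPM without added counts; log2 ratios add 0.5 counts. The threshold was 2-fold and the minimum a mean count of 20. No test was run. Where both libraries had 3 reads or fewer, no ratio is given. The interval and calling steps were tested on simulated data. Coordinates are from RefSeq GRCh38.p14. The members, lists and named genes were chosen with earlier results of these data known. Named were the 10 members, NOP10, GAR1, WRAP53, MYC, CDKN1A and MKI67, the extremes of each list (2 at either end) in combination against control, neighbours of TERT and TERC, and the 5 genes most like TERT; part of the list extremes, 1 list and 1 gene are not reported here. Of the 17 lists, those of host cells are given as sums for muscle and fibroblasts. Also tried were priors of 2 and 0.1 counts, no minimum and a mean of 100, total-count and median-of-ratios (DESeq2 1.42.0) scaling, FPKM with 0.1 added and a 1.5-fold threshold. Radiation against exercise, the non-overlap of libraries and the genes of 20 to 50 reads were added after seeing the data.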

Additional observations from a re-analysis of the deposited data

How the results depend on the processing

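The TERT log2 ratio kept its sign in all 6 comparisons under every alternative that included TERT. These alternatives reuse the same counts, so a change of sign was hardly possible and its absence supports nothing. Apart from the FPKM setting, the TERT log2 ratio ranged from -3.90 to -3.08 for combination against control, -4.47 to -3.63 for combination against exercise, -3.02 to -2.55 for radiation against control and -3.59 to -3.09 for radiation against exercise. On deposited FPKM with 0.1 added these became -0.28, -0.41, -0.26 and -0.38, and 0 members were 2-fold lower in those 4 comparisons; the added 0.1 exceeds every TERT FPKM value (0.001 to 0.034). In combination against control, 160 genes were then higher and 81 lower. A minimum mean of 100 counts leaves TERT out, so that 0 members were lower in those 4 comparisons, with 224 genes higher and 101 lower in combination against control. With no minimum, 2988 genes were higher and 3487 lower, and 1 member, TERC, was higher in combination against radiation on 5 and 2 reads. At a 1.5-fold threshold, 1 member (TERT) was lower in combination against radiation. Of the values for other members, 255 of 255 stayed within their counting interval; the sign changes were of ratios near 0, such as POT1 in combination against control, at 0.07 by TMM and -0.01 by total counts. No paired analysis was possible because each group has 1 library. Depth limits TERT and TERC most, and variation between tumors was not measured.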

Other observations

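Markers of other cell types and of the A549 line are given as values. Of the muscle markers, MYH2 had 0, 14, 183 and 284 reads in control, exercise, radiation and combination and MYH1 had 0, 11, 278 and 258, while MB had 70, 58, 37 and 52 and ATP2A1 294, 300, 363 and 353. Of the macrophage-related markers, LYZ had 1493, 1414, 2845 and 4055 reads and CD68 had 1583, 1540, 3526 and 3594, while CSF1R had 9933, 9221, 8311 and 8208. Of the endothelial markers, PECAM1 had 655, 484, 334 and 181 reads, while CDH5 had 21, 15, 16 and 16, TEK 13, 27, 19 and 16 and KDR 9, 19, 4 and 12. The keratinocyte marker KRT14 had 287, 397, 115 and 88 reads, and KRT10 had 1110, 1002, 1153 and 1135. Of the A549 enzymes, ALDH3A1 had 21059, 26594, 49928 and 40533 reads, and AKR1C2 had 73445, 74876, 61829 and 49696. Their part in the level of any telomerase or shelterin gene was not tested.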
